A study of Mus musculus with 6 samples.

Results

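Acetylcholine is made by choline acetyltransferase, acts on muscarinic and nicotinic receptors, and is broken down by acetylcholinesterase. The 10 genes described here are the 5 muscarinic receptors Chrm1 to Chrm5, the nicotinic subunits Chrna4, Chrna7 and Chrnb2, the synthetic enzyme gene Chat and the esterase gene Ache. They were chosen by symbol, and all 10 were found among the 24946 named genes of the data. Muscarinic receptors are G protein-coupled receptors, of which M1, M3 and M5 signal through Gq to phospholipase C and M2 and M4 through Gi and Go to lower cyclic AMP. Nicotinic receptors are cation channels of 5 subunits, and α4 with β2, or α7 alone, forms the main types of the brain. The septum is known for cholinergic neurons of its medial part, which project to the hippocampus, while neurons of the lateral septum are largely GABAergic.

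The measurements come from viral-TRAP of neurotensin (Nts) neurons of the lateral septum, with 3 IP and 3 Input libraries. All mice were Nts-Cre mice (strain label C57Bl6J, male and female, 8 to 20 weeks old in the study) that carried AAV5-Introvert-NBL10 in the lateral septum. The methods of the study instead name the virus AAV5-Introvert-GFPL10a, which makes GFP-tagged ribosomal protein L10a only where Cre is present. Tissue was taken 3 or 4 weeks after the injection and pooled from 4 to 6 mice, giving 3 pools. IP is the RNA that an antibody against GFP pulled down with the ribosomes from a pool, and Input is RNA of the same homogenate kept before the pull-down, so a replicate number marks a pool. Input was not selected for ribosomes, and no library from mice without Cre or without the tag was analysed here, so RNA bound by the beads without the tag was not measured. Bulk values do not separate fewer cells of a type from less RNA per cell: the 2 cannot be told apart.

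The values deposited are reads of each gene after division by DESeq2 factors, called normalized counts below. These summed to between 22781800 and 24958400 over named genes in IP and to between 16828000 and 17129100 in Input. A single read was worth about 2.24 to 2.31 in IP and 1.73 to 1.86 in Input, which puts the depth at roughly 9870000 to 10960000 reads in IP and 9190000 to 9860000 in Input. A gene at 0 could therefore still lie at up to 6.93 in IP or 5.59 in Input, the value of 3 reads, by counting error alone. The targeted cells were found in IP: Nts had a log2 fold change of 4.12 (SE 0.29) and Rpl10a, the gene of the tagged protein, one of 3.13 (SE 0.17). All 6 lateral septum markers were higher in IP, and 5 of 6 GABAergic markers were higher and 1 lower. All 6 astrocyte, all 6 oligodendrocyte and all 6 microglia markers were lower in IP, with summed counts of 8180 to 12213, 13679 to 21771 and 559 to 935 in IP, against 34731 to 41011, 99379 to 142625 and 3016 to 4277 in Input. Of 6 endothelial and mural markers 3 were lower and 3 did not pass. The part of these cells in the results below was not tested.

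IP was compared with Input with limma on log2(value + 1) over 14859 genes, and "higher", "lower", "rose" and "fell" below mean an adjusted p under 0.05. Of the 9 cholinergic genes tested, 1 was higher in IP (Ache) and 5 were lower (Chrm1, Chrm4, Chrna4, Chrna7 and Chat). Chrm2, Chrm3 and Chrnb2 did not pass, and Chrm5 was too low to be tested. Over all genes tested, 31.4% were higher and 32.2% lower. None of the 9 was enriched more than 2-fold, at an adjusted or at an unadjusted p under 0.05, where 12.6% of all genes were enriched at the adjusted p. Chrna4, Chrna7 and Chat were depleted more than 2-fold, against 17.2% of all genes. The median log2 fold change of the 9 genes was -0.89, and that of all genes tested was -0.06.

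The groups did not overlap for 8 of the 10 genes. Every IP library lay below every Input library for 7 of them, 6 of these among the 9 tested genes, where 35.4% of all tested genes did so. Every IP library lay above every Input library for Ache alone, as it did for 34.2% of tested genes. With 3 libraries a group the exact two-sided permutation test of a single gene cannot go below p = 0.1, and each of these 8 genes had that value.

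**Figure D1:**
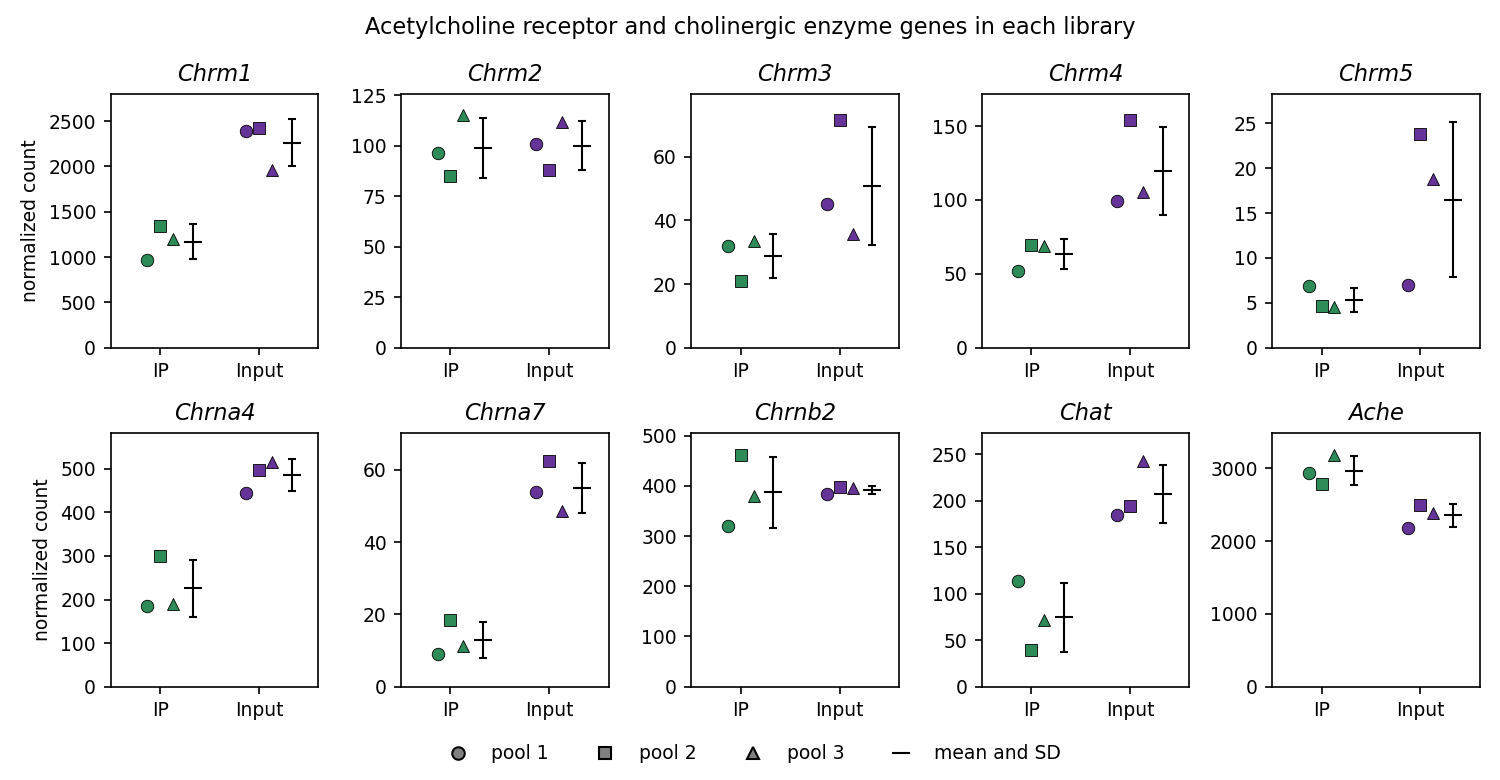
Normalized count of each of the 10 genes (vertical axes from 0, each panel with its own scale) in the 3 IP libraries (green) and the 3 Input libraries (purple). Marker shapes give the pool, and bars give the mean and SD of 3 libraries. IP lies below Input without overlap in 7 panels, above it for Ache, and overlaps it for Chrm2 and Chrnb2.

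Promoter sequence is shown for 3 genes: Ache, the called gene with the largest positive change, Chrna7, the called gene with the largest negative change, and Chat, whose product makes the transmitter. RefSeq start sites on GRCm38.p6 (mm10) were found for 9 of the 10 genes, all but Chrm1. The 250 bases before each start follow, 5′ to 3′ on the strand of the gene, with capitals at the motif matches found on either strand. Ache lies on chromosome 5, plus strand, and its window is chr5:137288004-137288253. Chrna7 lies on chromosome 7, minus strand, and its window is chr7:63212527-63212776. Chat lies on chromosome 14, minus strand, and its window is chr14:32465910-32466159.
Ache: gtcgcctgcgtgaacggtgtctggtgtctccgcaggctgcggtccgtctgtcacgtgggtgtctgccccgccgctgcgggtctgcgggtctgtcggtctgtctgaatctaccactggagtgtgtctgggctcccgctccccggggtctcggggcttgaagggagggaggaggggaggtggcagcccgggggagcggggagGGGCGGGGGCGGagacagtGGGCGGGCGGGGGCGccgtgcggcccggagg
Chrna7: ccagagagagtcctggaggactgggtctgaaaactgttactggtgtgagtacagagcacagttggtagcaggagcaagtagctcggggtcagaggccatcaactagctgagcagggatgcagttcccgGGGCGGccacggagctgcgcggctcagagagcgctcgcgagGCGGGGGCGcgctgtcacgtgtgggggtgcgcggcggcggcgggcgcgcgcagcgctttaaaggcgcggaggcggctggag
Chat: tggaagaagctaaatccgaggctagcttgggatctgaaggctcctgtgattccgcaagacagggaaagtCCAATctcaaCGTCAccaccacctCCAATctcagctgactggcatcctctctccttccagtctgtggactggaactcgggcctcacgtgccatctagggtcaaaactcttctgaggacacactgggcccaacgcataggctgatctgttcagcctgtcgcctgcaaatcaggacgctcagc

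The motifs searched were the GC box (GGGCGG), the EGR site (GCGGGGGCG, which can overlap a GC box), the CRE core (TGACG), the CCAAT box (CCAAT), the TATA box (TATAAA) and the left (TTCAGCACC) and right (GGACAGC) parts of the RE1 element. Ache held 4 GC boxes and 2 EGR sites, which overlap in a pair of runs near the start. Its window lies within the span that GENCODE gives the gene, which begins farther upstream. The windows of Chrna7 and Chat overlap their GENCODE spans in part, since those spans begin at 63212569 and 32465989 on the minus strand. Chrna7 held 1 GC box and 1 EGR site. Chat held 2 CCAAT boxes and 1 CRE core between them, and no GC box. A GC box was present in 32.7% of the 32851 mouse promoter windows of that length, an EGR site in 2.57%, a CCAAT box in 33.8% and a CRE core in 17.8%. A TATA box was present in 12.4% of all windows and the RE1 parts in 0.301% (left) and 5.28% (right), and none of these was found in the 9 windows searched. The share of G and C was 73.6% for Ache, 67.2% for Chrna7 and 54.8% for Chat, against a median of 52.4%. These are matches of letters and no measurement of binding.

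Chat encodes choline acetyltransferase, which makes acetylcholine from choline and acetyl-CoA and defines cholinergic neurons. Its normalized counts were 113, 39.2 and 71.5 in IP and 184, 194 and 243 in Input. Every IP library was below every Input library, and the IP libraries differed from each other more (coefficient of variation 49.7%) than the Input libraries (15.1%), with pool 2 lowest in IP. The log2 fold change was -1.58 (SE 0.32, adjusted p = 0.000957), lower in 3 of 3 pools, and it lay between -2.05 and -1.18 under the 21 alternatives run.

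Ache encodes acetylcholinesterase, the enzyme that hydrolyses acetylcholine at synapses and is also made by neurons that receive it. It had 2938, 2787 and 3184 normalized counts in IP, against 2181, 2496 and 2385 in Input. All IP libraries lay above all Input libraries by a small margin, and the mean in IP was 1.26 times that in Input. The log2 fold change was 0.34 (SE 0.09, adjusted p = 0.00664), higher in 3 of 3 pools. This call depended on the scaling between libraries and on transcript length. The change was -0.15 (adjusted p = 0.154) with libraries scaled to equal totals and -0.04 (adjusted p = 0.743) with scaling on pan-neuronal genes. With transcript length taken into account it was 0.06 (adjusted p = 0.528). The call was also lost without pool 3 (0.295, adjusted p = 0.0839). Without pool 1 the change was of similar size and passed (0.288, adjusted p = 0.0386).

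Both enzymes were also set against each other within a library. A scaling factor common to a library cancels in such a ratio, but the part of the deposited factors that varies by gene does not. The ratio of Ache to Chat was 26.0, 71.1 and 44.5 in IP, against 11.8, 12.9 and 9.83 in Input (p = 0.1 in a two-sided exact permutation test, the lowest it can give here). It is 1 of 5 ratios formed after the values were seen, and each of the 5 had this p.

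Chrm1 encodes the M1 receptor, the main muscarinic receptor of forebrain principal neurons, and was by far the most abundant of the 5. It had 971, 1347 and 1196 normalized counts in IP, against 2390, 2429 and 1962 in Input. The mean in IP was 0.518 of that in Input, with no overlap, and the log2 fold change was -0.95 (SE 0.13, adjusted p = 3.25e-05), lower in 3 of 3 pools. Chrm1 stayed lower under all 21 alternatives, with log2 fold changes between -1.44 and -0.49.

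Chrm4 encodes the M4 receptor, which couples to Gi and is well known from striatal projection neurons. Its normalized counts were 51.6, 69.3 and 68.8 in IP, against 99.4, 154 and 105 in Input. The groups did not overlap, and the Input library of pool 2 was the highest of all. The log2 fold change was -0.89 (SE 0.27, adjusted p = 0.0104). Chrm4 did not pass without that Input library (-0.70, adjusted p = 0.0717) or without pool 2 (-0.77, adjusted p = 0.0723), and its change was -1.57 with transcript length taken into account. That correction used a model of 1440 bases, which holds coding sequence alone, so its size is uncertain.

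Chrm2 encodes the M2 receptor, a Gi-coupled receptor that also acts as an autoreceptor on cholinergic terminals. It had 96.4, 85.2 and 115 normalized counts in IP and 101, 87.8 and 112 in Input, so the groups overlapped throughout. The log2 fold change was -0.02 with a 95% confidence interval from -0.53 to 0.48 (adjusted p = 0.941; exact permutation test, two-sided, p = 0.8). Chrm2 overlaps the noncoding gene 9330158H04Rik on the opposite strand over 2108 bases, and whether reads were counted by strand is not given in the sources used here. 9330158H04Rik, named for this overlap, had 64.5, 24.5 and 29.7 in IP and 5.04, 3.67 and 5.32 in Input (log2 fold change 2.72, SE 0.58, adjusted p = 0.00127). It passed the filter through its IP libraries alone, with every Input library under 10. Its part in the Chrm2 value was not tested.

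Chrm3 and Chrm5 encode the other Gq-coupled receptors and were low. Chrm3 had 31.9, 20.8 and 33.6 normalized counts in IP, against 45.2, 71.5 and 35.8 in Input. IP lay below Input in each library, yet the highest IP and the lowest Input value lay close together, and the log2 fold change of -0.77 had an interval from -1.61 to 0.07 (adjusted p = 0.0985). Chrm3 passed with libraries scaled to equal totals (-1.24, adjusted p = 0.0121) and with pan-neuronal scaling (-1.14, adjusted p = 0.0201). It shrank to -0.29 (adjusted p = 0.583) without pool 2, to -0.50 (adjusted p = 0.365) without the Input library of pool 2 and to -0.42 (adjusted p = 0.380) with the length correction.

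Chrm5 had 6.85, 4.60 and 4.49 in IP, about 3, 2 and 2 reads, against 6.93, 23.8 and 18.8 in Input. The lowest Input library was almost level with the highest IP library. With the filter on low values removed, Chrm5 had a log2 fold change of -1.34 (SE 0.59, adjusted p = 0.0809 over 18643 genes), so a difference was not shown at this depth.

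Within the summed muscarinic counts of a library, Chrm1 made up 83.9% to 88.2% in IP and 87.8% to 90.5% in Input. The share of Chrm2 was 5.58% to 8.33% in IP and 3.17% to 5.00% in Input. The ratio of Chrm2 to Chrm1 was 0.0993, 0.0632 and 0.0962 in IP, against 0.0422, 0.0361 and 0.0569 in Input. The groups of this ratio did not overlap (p = 0.1 in a two-sided exact permutation test, the lowest it can give here), although the IP value of pool 2 was close to the Input value of pool 3. The ratio was formed after the values were seen.

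Markers of other cell types moved alongside these receptors. Of 8 markers of striatal projection neurons, 7 were lower in IP and 1 (Drd2, log2 fold change 0.66) was higher, with summed counts of 34076 to 48673 in IP and 48403 to 67268 in Input. Drd1, the dopamine receptor of one class of these neurons, fell by 2.51 on the log2 scale. Of 6 markers of cortical excitatory neurons 5 were lower, and Nrgn was higher (1.49) and made up most of the sum in IP, which was 26357 to 33100 in IP and 13611 to 22148 in Input. As background, 32.2% of all genes tested were lower and 31.4% higher. No marker of either list was at 0 in any library. The part of such cells in the lower values of Chrm1 and Chrm4 was not tested.

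Chrna4 and Chrnb2 encode the subunits of the α4β2 receptor, the brain's main high-affinity nicotine binding site. Chrna4 had 184, 301 and 191 normalized counts in IP, against 444, 497 and 515 in Input. Every IP library was below every Input library, with pool 2 the highest in IP, and the log2 fold change was -1.14 (SE 0.19, adjusted p = 0.000177). The call was kept under all 21 alternatives (-1.62 to -0.77).

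Chrnb2 had 319, 461 and 380 normalized counts in IP and 383, 397 and 396 in Input. The IP libraries lay on both sides of the narrow Input range, and the log2 fold change was -0.03 with an interval from -0.36 to 0.30 (adjusted p = 0.853; exact permutation test, two-sided, p = 0.7). Its direction turned with the processing. It was -0.52 (adjusted p = 0.0169) with equal totals and -0.41 (adjusted p = 0.0419) with pan-neuronal scaling, and 0.43 (adjusted p = 0.0169) with transcript length taken into account. Chrnb2 overlaps Adar, an RNA-editing enzyme gene on the opposite strand, over 7252 bases of gene span, and Adar did not pass either (log2 fold change 0.13, SE 0.13, adjusted p = 0.383).

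Chrna4 was also set against Chrnb2 within a library. The ratio of Chrna4 to Chrnb2 was 0.578, 0.653 and 0.502 in IP, against 1.16, 1.25 and 1.30 in Input, and the groups were far apart relative to their spread (p = 0.1 in a two-sided exact permutation test, the lowest it can give here). This ratio was formed after the values of both genes were seen, so it is no separate test. A ratio of counts per gene is not a ratio of subunits in a channel, since the transcripts differ in length.

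**Figure D2:**
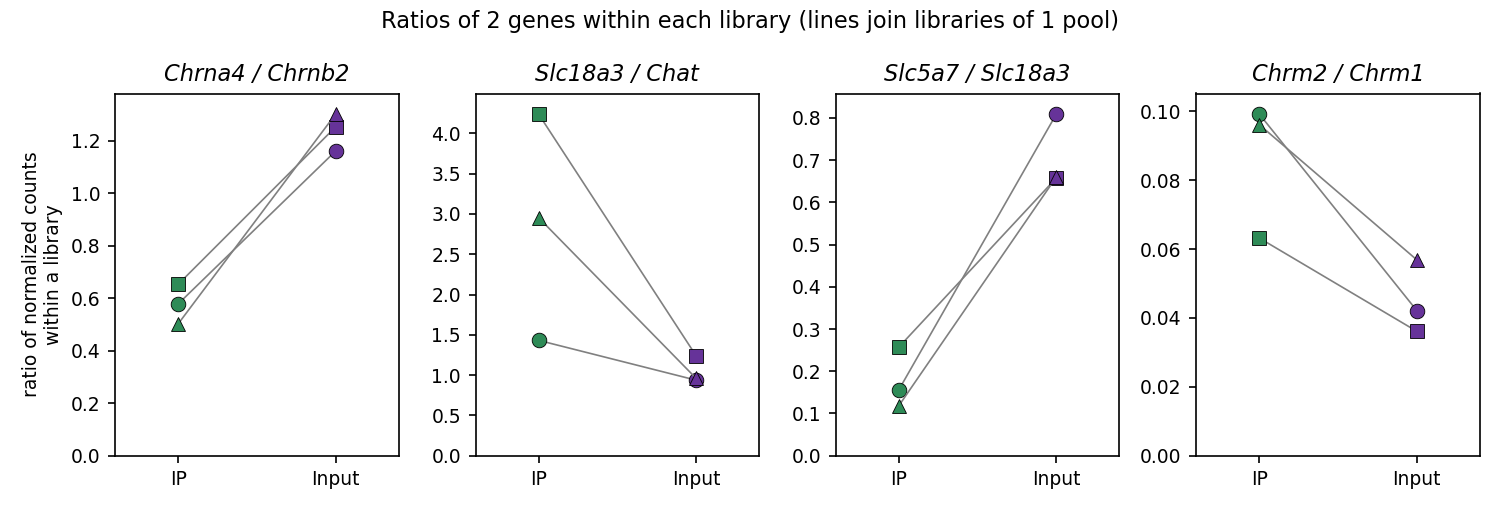
Ratio of the normalized counts of 2 genes within each library (vertical axes from 0), for IP at the left and Input at the right of each panel, with a line joining the libraries of a pool and marker shapes as pools (circle 1, square 2, triangle 3). Chrna4 over Chrnb2 and Slc5a7 over Slc18a3 are lower in IP in every pool, and Slc18a3 over Chat and Chrm2 over Chrm1 are higher in IP in every pool.

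Chrna7 encodes the α7 subunit, which forms a calcium-permeable channel of its own. Its normalized counts were 9.10, 18.5 and 11.2 in IP, about 4, 8 and 5 reads, against 53.8, 62.4 and 48.6 in Input. The highest IP library was well under the lowest Input library. The log2 fold change of -2.06 (SE 0.42, adjusted p = 0.000962) was the largest in size of the 9 genes tested, and the call held in all 20 alternatives that gave a value. Chrna7 needed its Input libraries to pass the filter, since IP library 1 was under 10. Because IP rests on so few reads and 1 was added before the logarithm, the size of the change is understated on this scale.

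Of the 13 other nicotinic subunits, 5 passed the filter. Chrna9 and Chrna10, known together as the receptor of cochlear hair cells, were both higher in IP. Chrna9 had 54.8, 36.8 and 45.0 in IP, against 5.19, 7.33 and 8.54 in Input (log2 fold change 2.54, SE 0.48, adjusted p = 0.000515). Chrna10 had 89.8, 83.4 and 73.2 in IP, against 10.6, 12.9 and 18.8 in Input (log2 fold change 2.49, SE 0.37, adjusted p = 7.56e-05). The groups lay far apart for both genes. Chrna9 passed the filter through its IP libraries alone, with every Input library under 10, and the filter of 10 in each library drops it. Chrna10 overlaps Art1 on the opposite strand over 2668 bases, and Art1 itself had only 2.22 to 4.40 in IP and 1.78 to 3.71 in Input.

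Chrna2 and Chrna3, subunits that are best known from interneurons and from ganglion and habenular neurons, were lower in IP and near the floor. Chrna2 had 0, 9.24 and 0 in IP, against 15.6, 35.0 and 20.6 in Input (log2 fold change -3.43, SE 0.99, adjusted p = 0.00904). Chrna3 had 0, 9.17 and 2.26 in IP, against 12.05, 22.0 and 20.7 in Input (log2 fold change -2.54, SE 0.91, adjusted p = 0.0271). Both passed the filter through their Input libraries alone, and pool 2 alone had more than 3 reads of either gene in IP. The Chrna2 change ran from -4.55 to -2.87 with a library or pool left out, and its call was lost without the Input library of pool 2 (adjusted p = 0.0587) or without pool 3 (adjusted p = 0.0511). The Chrna3 change ran from -3.37 to -1.70 with a library or pool left out, the smallest without IP library 1, and its call was lost in 7 alternatives, with adjusted p up to 0.107, reached without pool 3. The other 6 in which it was lost were the length correction and leaving out IP library 1, each single Input library or pool 1. Chrna5, an accessory subunit, did not pass (log2 fold change -0.35, interval -1.45 to 0.76, adjusted p = 0.571). Of the 8 untested subunits, the muscle subunits Chrnd and Chrng were at 0 in all 6 libraries, and Chrnb3 was at 0 in all IP libraries and at 1.72 to 5.53 in Input, under the value of 3 reads in each library.

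The genes that handle acetylcholine and choline at the terminal and the other esterase genes comprised 7 tested genes. Of these, 3 were lower and none was higher in IP, beside 32.2% lower and 31.4% higher over all genes tested. At an unadjusted p under 0.05 none of the 7 was higher and Colq was lower as well. Slc5a7, the high-affinity choline transporter that feeds acetylcholine synthesis, had 25.3, 42.8 and 25.0 in IP, against 140, 159 and 154 in Input (log2 fold change -2.29, SE 0.29, adjusted p = 1.96e-05). Slc44a1, a choline transporter found in many cell types, had 386, 549 and 448 in IP, against 1743, 2504 and 2351 in Input (log2 fold change -2.25, SE 0.16, adjusted p = 1.23e-07). Both were lower without overlap in 3 of 3 pools. Bche, which encodes butyrylcholinesterase, was at 0, 0 and 4.57 in IP, against 25.1, 42.1 and 38.6 in Input (log2 fold change -4.32, SE 0.86, adjusted p = 0.000738). Bche passed the filter through Input alone, and its fitted value depends on the added 1 and was -2.67 with 5 in its place. With a library or pool left out it ran from -5.15 to -3.77.

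The 4 others did not pass. Slc18a3, the vesicular acetylcholine transporter, had 162, 166 and 211 in IP and 173, 241 and 233 in Input (log2 fold change -0.25, interval -0.68 to 0.17, adjusted p = 0.268), but passed with equal totals (-0.73, adjusted p = 0.00666) and with pan-neuronal scaling (-0.63, adjusted p = 0.0191). Slc10a4, a vesicular protein of cholinergic and monoaminergic neurons, had a log2 fold change of 0.02 (interval -0.36 to 0.41, adjusted p = 0.913). Colq and Prima1, which anchor acetylcholinesterase in muscle and in brain, had log2 fold changes of -2.53 (adjusted p = 0.0633) and -0.75 (adjusted p = 0.111). Colq was at 0, 16.1 and 0 in IP, so its value hung on pool 2, and with the pool as a replicate block its adjusted p was 0.0457. It also passed with equal totals, with pan-neuronal scaling, and without IP library 2 (-3.90, adjusted p = 0.00258) or pool 2. Prima1 passed in 6 alternatives, among them the length correction (-1.83, adjusted p = 0.00162) and equal totals (-1.22, adjusted p = 0.0147).

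Slc18a3 lies within the Chat gene on the same strand, with an overlap of 2413 bases, and reads of the shared part may have been given to either gene. The ratio of Slc18a3 to Chat was 1.43, 4.24 and 2.95 in IP, against 0.937, 1.24 and 0.960 in Input. The ratio of Slc5a7 to Slc18a3 was 0.156, 0.257 and 0.118 in IP, against 0.809, 0.658 and 0.660 in Input. Neither ratio overlapped between groups (p = 0.1 each in a two-sided exact permutation test, the lowest it can give here). Both ratios were formed after the values were seen.

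Of 9 markers of cholinergic neurons, a list that includes Chat and 3 genes just described, 5 were lower, 1 was higher and 3 did not pass. Of all genes tested, 32.2% were lower and 31.4% higher. The summed counts of the 9 markers were 2230 to 2911 in IP and 2027 to 2582 in Input. Isl1, a transcription factor of several neuron types, was the higher one (1498, 1318 and 1685 in IP against 490, 567 and 601 in Input) and made up most of the sum in IP. Lhx8, a transcription factor of basal forebrain cholinergic neurons, was lower in IP (log2 fold change -1.64, SE 0.27, adjusted p = 0.000173). None of the 9 was at 0 in any library. The part of cholinergic cells in the Input values of Chat and Slc5a7 was not tested.

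**Figure D3:**
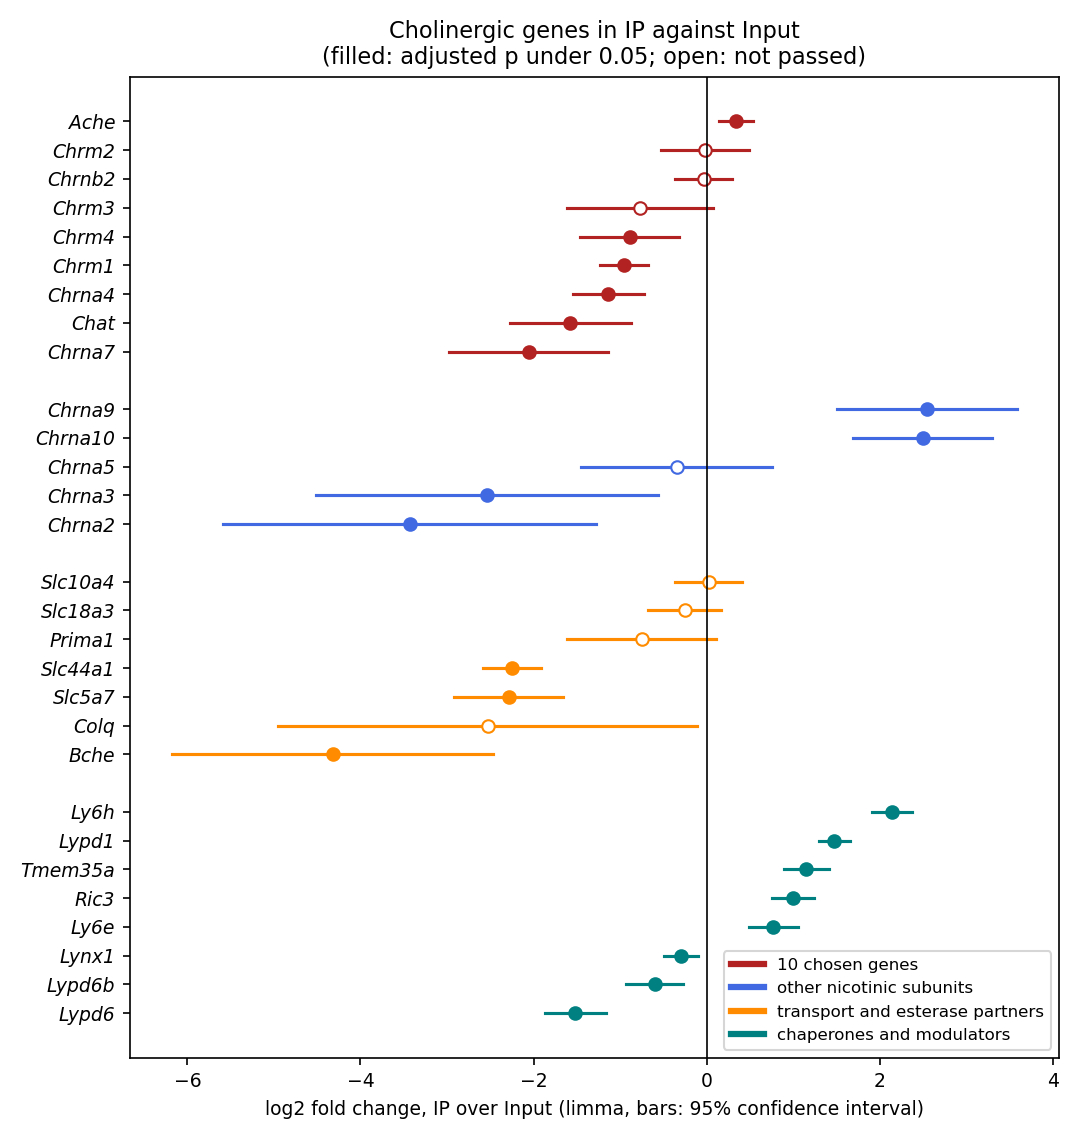
Log2 fold change of IP over Input (horizontal axis, limma) for the 9 tested genes of the 10 (red), 5 other nicotinic subunits (blue), 7 transport and esterase genes (orange) and 8 receptor chaperones and modulators (green), with 95% confidence intervals. Filled points passed an adjusted p under 0.05 and open points did not. Ache is the 1 red point that passed to the right of 0, Chrna9 and Chrna10 stand at 2.54 and 2.49, and the green points lie on both sides.

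All 8 tested genes that help to assemble nicotinic receptors or bind to them passed the test, 5 higher and 3 lower, where 31.4% of all genes were higher and 32.2% lower. Ly6h, a lipid-anchored protein that holds back α7 receptors, had 15544, 11568 and 13254 in IP, against 3057, 3205 and 2848 in Input (log2 fold change 2.14, SE 0.11). Lypd1, a relative known as Lynx2, was higher as well (1.47, SE 0.08), but it overlaps Gpr39 on the opposite strand over 6241 bases and Gpr39 changed by as much (1.46, SE 0.09). Lypd6, another member of the Ly6 family, was lower with 186, 142 and 188 in IP, against 529, 483 and 461 in Input (log2 fold change -1.52, SE 0.16). The groups were wide apart for these 3 genes.

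The chaperones Ric3 and Tmem35a (NACHO), which α7 receptors need to assemble, were named after their values were seen. Ric3 had a log2 fold change of 1.00 (SE 0.11) and Tmem35a one of 1.15 (SE 0.12), in the libraries in which Chrna7 itself was lower. Of the other 3, Ly6e was higher (0.77) and Lynx1 (-0.30) and Lypd6b (-0.60) were lower. Ly6e did not pass with equal totals (0.29, adjusted p = 0.0519). The Lynx1 call was lost in 6 alternatives: with the length correction, without or with the replicate block (-0.0032, adjusted p = 0.9747 each), and without Input library 1, Input library 2, pool 1 or pool 2 (adjusted p up to 0.0761).

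The signalling genes behind the muscarinic receptors had log2 fold changes of under 1 in size. Of 7 genes of the Gq type, 2 were higher, 3 lower and 2 did not pass, with log2 fold changes between -0.95 and 0.39. Gna11, a Gq family subunit, was higher (0.39, SE 0.08), and the phospholipase Plcb1 (-0.42, SE 0.09) and the M-current channel subunit Kcnq5 (-0.95, SE 0.22) were lower. Kcnq5 did not pass with the length correction (-0.47, adjusted p = 0.0812). Both Gna11 and Plcb1 turned in direction under another processing choice, Gna11 with equal totals (-0.09) and Plcb1 with the length correction (0.06).

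Of 8 genes of the Gi and Go type, 3 were higher, 2 lower and 3 did not pass, with a range from -0.74 to 0.77. Gnai1, an inhibitory G protein subunit, had 10117, 10383 and 10257 in IP, against 6446, 6138 and 6215 in Input (log2 fold change 0.71, SE 0.08). The potassium channel gene Kcnj6 was higher (0.77, SE 0.28, adjusted p = 0.0305), a call that was lost in 10 alternatives, and the adenylyl cyclase Adcy5 was lower (-0.74, SE 0.13), a call lost with the length correction (-0.26, adjusted p = 0.0850). Gnb1, a β subunit, did not pass (-0.03, interval -0.34 to 0.28). Over all 5 lists, 12 of 35 tested genes were higher and 13 lower, with a median log2 fold change of -0.20, beside 31.4% higher, 32.2% lower and a median of -0.06 over all genes tested, so the shares lie near the background.

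Levels of different genes were compared per kilobase of the longest annotated transcript. In IP the order was Ache (1359 ± 91.6 normalized counts per kilobase, SD, n = 3), Chrm1 (187 ± 30.1), Chrnb2 (60.5 ± 11.1), Chrna4 (49.4 ± 14.4), Chrm4 (43.9 ± 7.0), Chat (26.1 ± 13.0), Chrm2 (17.4 ± 2.7), Chrm3 (6.63 ± 1.6), Chrna7 (6.22 ± 2.4) and Chrm5 (3.32 ± 0.83). The ranges of neighbours overlapped from Chrnb2 down to Chrm2, and for Chrm3 and Chrna7, so the order of these neighbours is not set by the data. Genes farther apart in the list could still be separate: Chrnb2 (49.9 to 72.1) lay above Chrm4 (35.9 to 48.1) in IP. In Input the order was Ache (1077 ± 73.1), Chrm1 (360 ± 41.3), Chrna4 (106 ± 8.0), Chrm4 (83.0 ± 20.9), Chat (72.4 ± 10.9), Chrnb2 (61.2 ± 1.2), Chrna7 (26.5 ± 3.3), Chrm2 (17.6 ± 2.1), Chrm3 (11.7 ± 4.3) and Chrm5 (10.3 ± 5.4). There, neighbours overlapped for Chrna4, Chrm4 and Chat and for Chrm2, Chrm3 and Chrm5. Chrnb2 had rank 3 in IP and rank 6 in Input, and Chrna7 rank 9 in IP and rank 7 in Input. The models of Chrm4 (1440 bases) and Chrm5 (1599 bases) hold coding sequence alone, which raises their values per kilobase against the others.

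The genes whose pattern over the 6 libraries was most like that of Ache, by Euclidean distance of log2 values centred on each gene's mean, were Rcn2 (distance 0.0784), Gpat4 (0.0798) and Tada1 (0.0858) of 14858 searched. Their log2 fold changes were 0.39, 0.37 and 0.33. For Chrna7 they were Cbs (0.147), Hdc (0.270) and Gpr146 (0.271), which encode an enzyme of cysteine synthesis, the enzyme that makes histamine and an orphan receptor, with log2 fold changes of -2.09, -2.12 and -1.90.

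**Figure D4:**
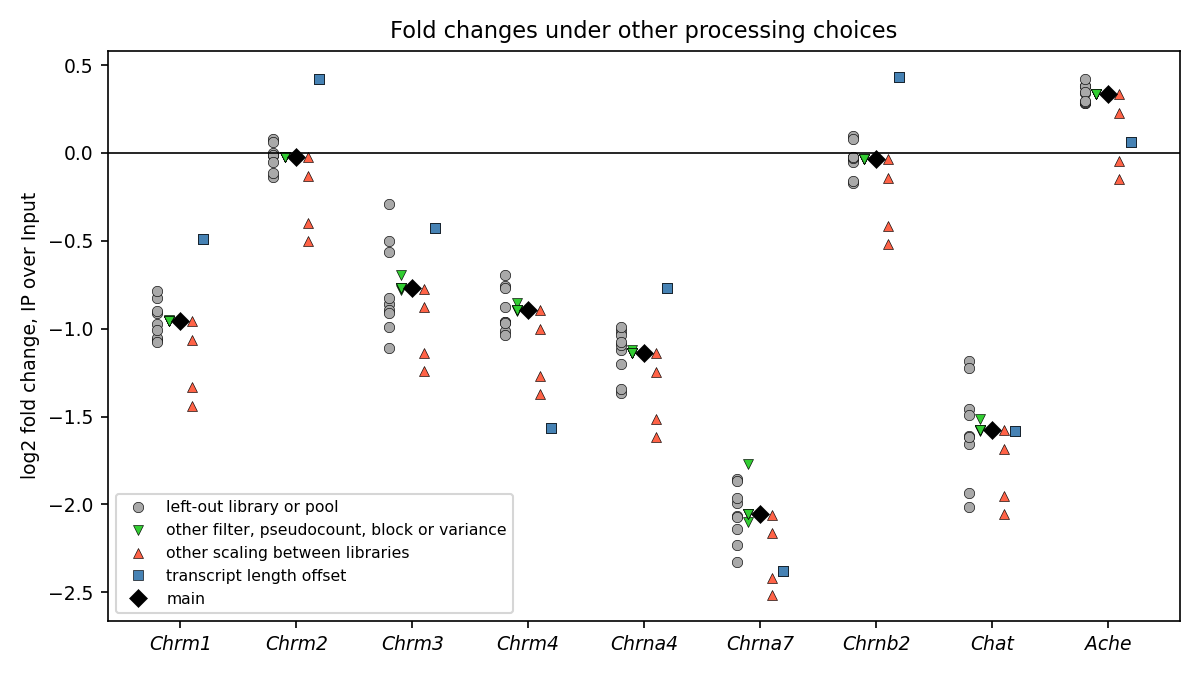
Log2 fold change of IP over Input (vertical axis) of the 9 tested genes under each processing choice: the fit reported (black diamonds), libraries or pools left out (grey circles), another filter, pseudocount, block or variance (green triangles pointing down), another scaling between libraries (red triangles pointing up) and a correction for transcript length (blue squares). Chrm1, Chrm4, Chrna4, Chrna7 and Chat stay below 0 throughout, as does Chrm3, which did not pass in the fit reported. Chrm2, Chrnb2 and Ache have values on both sides of 0.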

How the data were processed

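RNA of 3 IP and 3 Input libraries (lateral septum, Nts-Cre mice, SMARTer Ultralow amplification) was analysed. The authors deposited 1 signal value per gene and library, made from reads by division with DESeq2 factors that vary by gene, on a linear scale. STAR, DESeq2 and mm10 are named, without versions, in the processing notes of the submitters. For the counting program, its strand setting and read filters, a description is not given in the sources used here, and the methods name TopHat and Cufflinks. Of 24972 entries per library, 26 bear dates as names (0.188% to 0.32% of a library) and were left out.

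Whole reads could not be recovered, so no count model was used. Genes with at least 10 in at least 3 libraries (14859) were tested on log2(value + 1) with limma 3.58.1 in R 4.3.3 (trended variance, prior degrees of freedom 8.55) and Benjamini-Hochberg adjustment over these genes. All adjusted p-values are from limma, with the thresholds of the study (0.05 and, for enriched or depleted, more than 2-fold). Fold changes are on the log2(value + 1) scale, which shrinks changes of low genes, and where a library is at 0 the fitted value depends on the added 1 and can exceed the fold of the group means. Single values were compared with exact permutation tests (scipy 1.17.1). The code was tested on simulated data. Figures were drawn with matplotlib 3.10.9.

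The replicate number pairs IP and Input, since both come from a pool of mice. Deviations from group means correlated at 0.109, 0.095 and 0.099 within a pool and at -0.083 to -0.013 between pools. The methods name no pairing term, so the pool as a replicate block was an alternative, beside 4 scalings, 2 pseudocounts, 2 filters, a transcript length correction, an untrended variance and leaving out libraries and pools. IP libraries correlated at 0.967 to 0.970 with each other, Input libraries at 0.978 to 0.981, and IP with Input at 0.890 to 0.928.

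Genes named are the 10, each tested gene of the nicotinic and presynaptic lists, from the chaperone and signalling lists the 2 highest and the 2 with the largest change, at most 3 genes per marker list, Nts, Rpl10a and the nearest patterns. Ric3, Tmem35a, Ly6e, Lynx1, Lypd6b, Gnaq, Gnao1 and Plcb4 were named outside this rule, after their values were seen. Some genes of the lists enter the counts and are not reported here by name. The members and lists were chosen with earlier results of these data known. Gene spans and lengths are from GENCODE on mm10, which held 24464 of the named genes, and promoters from RefSeq.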

Additional observations from a re-analysis of the deposited data

How the results depend on the processing

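Of the 10 cholinergic genes, Chrm1, Chrna4 and Chat kept direction and call under all 21 alternatives, and Chrna7 under the 20 that gave a value (it fails a filter of 10 in each library). The number higher in IP was 1, and 0 with equal totals or pan-neuronal scaling and between 0 and 1 when libraries or pools were left out. With the length correction it was 1 as well, but the gene was Chrnb2 (0.43, adjusted p = 0.0169, limma) and not Ache (0.06, adjusted p = 0.528). The number depleted more than 2-fold was 3, but 6 with equal totals, 6 with pan-neuronal scaling and 5 with upper quartile scaling. Of the 35 other pathway genes tested, 12 were higher and 13 lower, but 7 higher and 20 lower with equal totals, and 7 lower with the length correction. These scalings move all genes: the median log2 fold change was -0.06 as reported, -0.54 with equal totals, -0.44 with pan-neuronal and -0.17 with upper quartile scaling, and the share of calls that were higher was 49.4%, 24.6%, 28.7% and 43.0% in that order. Relative to the shifted medians, Ache stayed above the median gene, at -0.15 with equal totals and -0.044 with pan-neuronal scaling.

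Among genes that passed in one fit or the other, direction also turned for Slc10a4 (-0.46) and Gna11 (-0.088) with equal totals. With the length correction, alone or with the replicate block, it turned for Chrnb2 (0.43), Gnaq (0.40), Gnao1 (0.38), Plcb1 (0.063) and Plcb4 (0.039), and Chrm2 changed sign (0.42) without passing in either fit. The cause was not tested. The replicate block, which pairs IP and Input of a pool, gave 1 of the 10 genes higher and 5 lower, as without it, and of the other named genes it changed the call of Colq alone (adjusted p = 0.0457, limma). Depth limits the values of Chrm5, Chrna2, Chrna3, Bche and Colq, whose IP libraries lay between 0 and 16.1 normalized counts. It also limits the size of the Chrna7 change, with 9.10 to 18.5 normalized counts in IP.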
